A study of Mus musculus with 9 samples.

Results

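The 37 genes described here had higher transcript levels in both Dnmt1-mutant cell lines than in wild-type (WT) cells at every time point sequenced. They were selected on measured values: log2(FPKM + 1) had to be at least 0.8 higher in 1KO than in WT cells, and in 1KO+1CI than in WT cells, at each of days 0, 2 and 4, which makes 6 differences. FPKM values scale a gene's reads by transcript length and library size, so they are levels per length. Of 15074 genes, 45 met all 6 differences (0.299%), and 8 of them were left out by name. Those 8 were Dppa3, H19, Mir675, Rhox13, Slc25a31, Tuba3a, Xlr3a and Xlr3b. The rise over WT is therefore how the genes were found and is not a result, and what follows concerns what the 37 genes had in common beyond it.

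RNA-seq covered 3 mouse embryonic stem cell (ESC) lines of J1 origin. WT is J1 itself, 1KO is Dnmt1-/-, and 1KO+1CI is 1KO with DNMT1 C1229S, a catalytically inactive DNMT1 expressed from a transgene under the CAG promoter. ESCs were grown on mouse embryonic fibroblast feeders with LIF, and day 0 is the undifferentiated state. For differentiation, feeders were first taken off by letting them attach to gelatin, and embryoid bodies (EBs) were made without LIF and then kept adherent, with RNA taken at days 2 and 4. Whether feeders were also taken off before the day 0 RNA is not stated for these libraries. The sources give neither a clone for the 1KO cells nor a meaning for the number 6 that the 1KO+1CI columns carry. There was 1 library for each of the 9 conditions, so no value below has a replicate error and the differences on single days describe pairs of libraries. Differences that the rule left free were also tested over the 6 mutant libraries with an additive fit of line and day. In that fit the other day or line stands in for replicates, so its error holds the differences between days or lines in a gene's response and not the spread between repeated cultures.

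DNMT1 copies DNA methylation onto new strands after replication. In mouse cells the promoters of many germline genes carry this methylation and are silent outside the germline, and their transcripts appear when it is lost. Imprinted genes, which are read from the copy of 1 parent, and retrotransposons are further classes held by it. Methylation itself is not part of the values described here.

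The libraries held between 20200000 and 28000000 counted reads if 1 step in the FPKM values is 1 read. Dnmt1 stood at 74.0, 80.4 and 48.5 FPKM in WT cells at days 0, 2 and 4, at 13.7, 17.4 and 12.3 in 1KO cells and at 315.0, 129.0 and 158.0 in 1KO+1CI cells, an order that fits the labels. Pou5f1, which marks ESCs and epiblast, lay between 632.0 and 1010.0 FPKM in all libraries. The table lists no gene with a value of 0 in any library, so a gene silent in WT could not be among the 37.

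The shares of all genes past 0.8 in the single differences that defined the rule were 3.89%, 2.75% and 2.97% for 1KO minus WT at days 0, 2 and 4, and 4.11%, 3.99% and 4.75% for 1KO+1CI minus WT. Nothing is read from them about the 37 genes. The members just inside the limit were Rusc2, Adgrg6 and Parp12, with smallest differences of 0.807, 0.832 and 0.842. Just outside were Nxf7, Igsf23 and Slc4a5, at 0.795, 0.793 and 0.773. For 12 members the smallest of the 6 differences was under 1.

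Most of the 37 genes were at low levels in WT cells. The mean over the 3 WT libraries was under 1 FPKM for 16 members and under 5 FPKM for 31, where 20.2% and 44.4% of all genes were. The rule used these values, so nothing is read from them. For 31 members every WT library was below every mutant library, which held for 2.29% of all genes and follows in large part from the rule. In the other 6, Col5a2, Ifi35, Plac8, Rusc2, Zbp1 and Zfp600, the highest WT library was above the lowest mutant library, which was of another day.

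**Figure D1:**
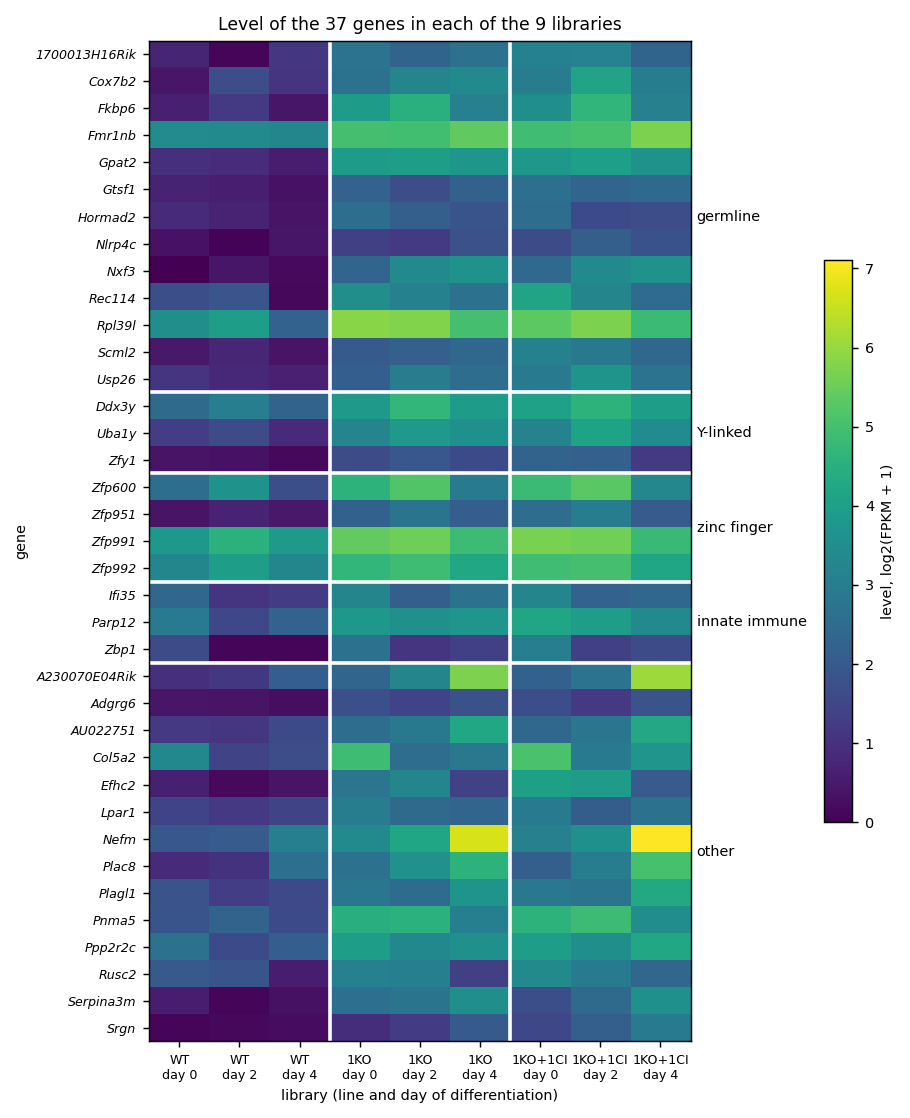
Colour gives the level, log2(FPKM + 1), of each of the 37 genes (rows, grouped by known role) in the 9 libraries (columns, by line and day, 1 library each). Dark cells are low levels: the germline genes other than Fmr1nb and Rpl39l are dark in the WT columns, and the brightest cells are Nefm at day 4 in the mutant lines, at 102.0 and 137.0 FPKM.

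The largest group by known role, with 13 of the 37, was made of genes of the testis, the oocyte or meiosis: Fkbp6, Gpat2, Gtsf1, Hormad2, Rec114, Usp26, 1700013H16Rik, Nxf3, Fmr1nb, Cox7b2, Rpl39l, Nlrp4c and Scml2. Roles were assigned from general knowledge with the values known, so the size of the group is a description. In a wider list of 117 germline and meiosis genes, 88 were in the table, 6 of them were among the 37 and 3 more were among those left out by name. Day 0 found 18 (1KO) and 22 (1KO+1CI) of the 82 others past 0.8, day 2 found 21 and 24, and day 4 found 10 in each line. Lower by 0.8 were 4 and 5 of the 88 at day 0, 5 and 4 at day 2 and 6 and 12 at day 4, so that in 1KO+1CI cells at day 4, 16 listed genes were higher and 12 lower. Of all genes, 3.61% and 4.28% were lower by 0.8 at day 0, 1.8% and 2.58% at day 2 and 1.45% and 2.34% at day 4, in 1KO and 1KO+1CI respectively, and the shares that were higher are those given above. The median of all 88 listed genes was 0.24 and 0.30 above WT at day 0, 0.33 and 0.42 at day 2 and 0.14 and 0.10 at day 4, with all genes between -0.03 and 0.02. A minority of the listed germline genes was thus past the limit in each of the 6 differences, and 9 of the 88, counting the 3 left out by name, were past it in all.

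Among the 13, 3 belong to the piRNA pathway, the small RNA system that silences transposons in germ cells. Fkbp6, a co-chaperone of that pathway in the testis, was at 0.547, 1.29 and 0.359 FPKM in WT cells at days 0, 2 and 4, at 13.9, 21.8 and 7.53 in 1KO cells and at 10.6, 24.6 and 7.52 in 1KO+1CI cells. Gpat2, a mitochondrial acyltransferase of germ cells that takes part in making piRNAs, stood at 0.944, 0.881 and 0.455 FPKM in WT, 14.0, 14.6 and 12.5 in 1KO and 12.9, 15.0 and 11.4 in 1KO+1CI libraries. Gpat2 was nearly level over the 6 mutant libraries, between 11.4 and 15.0 FPKM, while Fkbp6 was highest at day 2 in every line. Gtsf1, a zinc finger protein needed for transposon silencing in the testis, had 9, 9 and 4 reads in WT libraries, 75, 33 and 59 in 1KO and 86, 60 and 63 in 1KO+1CI libraries. In FPKM it ran from 0.267 to 0.61 in WT and from 2.2 to 5.04 in mutant cells.

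A further pair acts in meiosis. Hormad2, a protein of the meiotic chromosome axis, was at 0.798, 0.647 and 0.285 FPKM in WT, 4.89, 3.43 and 2.58 in 1KO and 4.86, 2.05 and 2.23 in 1KO+1CI cells at days 0, 2 and 4. Rec114, which is needed for the DNA breaks that start recombination, had 41, 57 and 2 reads in WT, 259, 141 and 105 in 1KO and 350, 158 and 82 in 1KO+1CI libraries. Both were lower at day 4 than at day 0 in all 3 lines. An exon of Rec114 overlaps Nptn, a widely expressed gene on the other strand, and the strand setting of the counting is not given in the sources used here. In the WT libraries of days 0, 2 and 4, where Rec114 had 41, 57 and 2 reads, Nptn was at 22.2, 35.0 and 23.8 FPKM. Sequence shared with Nptn covered 54.0% of a Rec114 transcript, and the part of Nptn reads in the Rec114 values was not tested.

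On the X chromosome lay 5 of the 13 germline genes. Usp26, a deubiquitinating enzyme of the testis, was at 1.12, 0.735 and 0.564 FPKM in WT, 3.35, 7.06 and 4.8 in 1KO and 6.42, 11.7 and 5.54 in 1KO+1CI cells. Nxf3, of the family of nuclear RNA export factors, was at 0.016, 0.36 and 0.144 FPKM in WT, 3.97, 9.38 and 11.4 in 1KO and 4.41, 9.37 and 11.6 in 1KO+1CI cells, so the mutant lines were close to each other on every day. 1700013H16Rik had 17, 3 and 30 reads in WT, 188, 99 and 145 in 1KO and 225, 202 and 95 in 1KO+1CI libraries. RefSeq lists Xlr6 among its synonyms, and it stayed among the 37 under its clone name where Xlr symbols were left out. Fmr1nb, a testis-expressed neighbour of Fmr1, was, with Rpl39l, one of the 2 germline members well expressed in WT, at 9.78, 9.57 and 8.52 FPKM, beside 31.1, 29.9 and 40.1 in 1KO and 29.5, 31.9 and 50.8 in 1KO+1CI cells. Scml2, a Polycomb-group protein of the male germline, was at 0.395, 0.705 and 0.288 FPKM in WT, 3.0, 3.54 and 4.22 in 1KO and 7.7, 6.28 and 4.22 in 1KO+1CI cells.

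Testis forms of housekeeping proteins and an oocyte gene made up the rest. Rpl39l, a copy of the ribosomal protein gene Rpl39 used in the testis, was the second highest of all 37 by mean mutant level, at 56.3, 53.3 and 31.4 FPKM in 1KO and 38.5, 51.7 and 28.0 in 1KO+1CI cells, beside 10.5, 14.9 and 3.67 in WT. Cox7b2, a testis form of a subunit of cytochrome c oxidase, had 4, 29 and 13 reads in WT, 81, 95 and 118 in 1KO and 89, 192 and 77 in 1KO+1CI libraries. Nlrp4c belongs to the NLRP4 family known from oocytes and had between 4 and 27 reads in WT and between 100 and 263 in mutant libraries.

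Promoter sequence was not used in choosing the genes. RefSeq promoters (GRCm38.p6, 250 bases before to 50 after the start site, the entry nearest the annotated gene start) were matched for 28 of the 37 genes and for 11638 of all genes. The members without an entry were A230070E04Rik, AU022751, Col5a2, Nefm, Nxf3, Serpina3m, Zbp1, Zfp991 and Zfp992. The promoters of the 28 were poorer in CpG, the dinucleotide that is methylated: the median was 12.5 CpG in 300 bases (quartiles 7.75 and 17.0) against 20 for all genes (12 and 28). Under 10 CpG were found in 11 of 28 members (39.3%) and 19% of all genes, and 20 or more in 6 members (21.4%) and 53.1% of all genes. The median ratio of observed to expected CpG was 0.539 against 0.751, and the median GC content 52.7% against 61.0%. Genes with low WT levels were poorer in CpG in general: the 4989 promoters of genes with a WT mean under 5 FPKM had a median of 16 CpG. Of these promoters, 31.3% held under 10 CpG and 41.8% held 20 or more, so the members stood nearer to them than to all genes. The 19 autosomal members had a median of 14.0 CpG, and the 9 on X or Y had 9.0, beside 14.0 for all 467 genes used on X or Y.

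**Figure D2:**
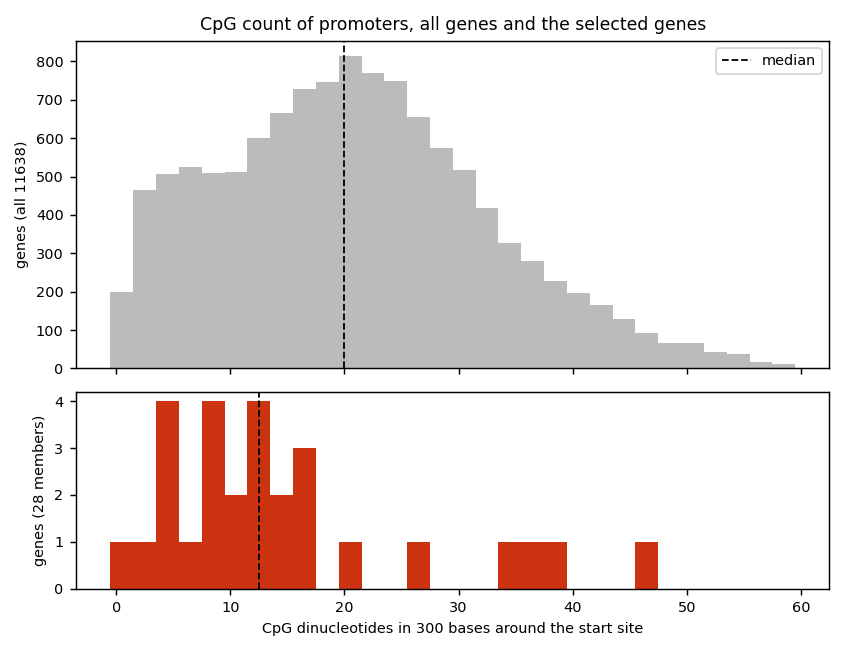
Histograms of the number of CpG dinucleotides in the 300 bases around the start site (bins of 2), for all 11638 genes with a promoter entry (top) and the 28 selected genes with one (bottom). Dashed lines mark the medians, 20 and 12.5, and the selected genes are few above 20.

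The extremes of the 28 lay far apart. Parp12 held 46 CpG, Adgrg6 38, Ppp2r2c 36 and Rusc2 35, which is above the upper quartile of all genes. Pnma5 held 1, Ifi35 3, Efhc2 4 and Plac8, Usp26 and Zfp600 5 each. Among germline members the counts ran from 5 in Usp26 and 7 in Nlrp4c to 17 in Rpl39l and 21 in Fkbp6. Of the germline members with an entry, none was above the upper quartile of all genes, and none but Fkbp6 was above the median.

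Each promoter was searched on both strands for 5 short motifs that contain CpG and whose binding factors are known to be hindered by methylation: the E-box CACGTG, the E2F6-type site TCCCGC, the CRE TGACGTCA, the NRF1 core GCGCATGC and the BANP core TCTCGCGA. At least 1 of them was found in 9 of the 28 promoters (32.1%) and in 48.0% of all genes. Among genes with a WT mean under 5 FPKM the share was 41.2%. The E2F6-type site stood in 5 members (17.9%) and 36.1% of all genes, the E-box in 3 (10.7%) and 10.2%, the NRF1 core in 4 (14.3%) and 5.27%, the BANP core in 1 (3.57%) and 2.2%, and the CRE in none and 3.16%. The NRF1 core was found in Fkbp6, Gpat2, Scml2 and 1700013H16Rik, all germline members, and the BANP core in Fmr1nb. The start site used for Scml2 lies 45557 bases from the annotated 5′ end of the gene. Of 4 further motifs, the GC box GGGCGG was in 39.3% of members and 64.3% of all genes, the TATA motif TATAAA in 7.14% and 7.05%, the ETS motif CCGGAAGT in 7.14% and 7.75%, and the T-box motif AGGTGTGA in 1 member (3.57%) and 0.885%. With 28 promoters, 1 promoter is 3.57%.

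At least 2 kinds of the 5 motifs stood together in 4 of the 28 promoters (14.3%) and 8.24% of all genes. These 4 are shown because they hold more than 1 kind, with the 5 motifs and the ETS motif in capitals, 5′ to 3′ on the strand of the gene. Fkbp6 (chr5:135349995-135350294, minus strand, GRCm38.p6) holds 2 E-boxes starting 101 and 37 bases before the start site, an NRF1 core 70 bases before it and an ETS motif after it. Gpat2 (chr2:127424949-127425248, plus strand) holds the NRF1 core on both strands, overlapping within 10 bases, and an E2F6-type site at the start site. Rec114 (chr9:58741510-58741809, minus strand) and Plagl1 (chr10:13090582-13090881, plus strand) each hold an E-box and an E2F6-type site. The start site used for Rec114 lies 2405 bases from the annotated 5′ end of the gene and that of Plagl1 30328 bases.
Fkbp6: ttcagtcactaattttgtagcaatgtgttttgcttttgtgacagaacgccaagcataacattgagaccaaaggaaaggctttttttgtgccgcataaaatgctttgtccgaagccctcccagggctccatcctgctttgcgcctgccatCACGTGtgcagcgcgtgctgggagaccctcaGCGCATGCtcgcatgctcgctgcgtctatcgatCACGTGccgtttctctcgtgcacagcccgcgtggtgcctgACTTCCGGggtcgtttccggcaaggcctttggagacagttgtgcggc
Gpat2: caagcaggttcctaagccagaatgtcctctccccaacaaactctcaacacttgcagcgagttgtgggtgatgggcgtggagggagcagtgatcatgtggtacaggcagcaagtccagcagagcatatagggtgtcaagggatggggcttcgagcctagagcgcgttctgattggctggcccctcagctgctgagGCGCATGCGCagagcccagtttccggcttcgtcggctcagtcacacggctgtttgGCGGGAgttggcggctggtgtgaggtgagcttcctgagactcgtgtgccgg
Rec114: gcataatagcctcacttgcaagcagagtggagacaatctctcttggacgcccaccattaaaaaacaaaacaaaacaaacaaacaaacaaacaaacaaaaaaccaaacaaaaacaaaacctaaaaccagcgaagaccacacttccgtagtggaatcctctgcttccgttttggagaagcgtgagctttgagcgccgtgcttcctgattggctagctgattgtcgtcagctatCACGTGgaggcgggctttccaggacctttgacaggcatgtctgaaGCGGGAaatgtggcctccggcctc
Plagl1: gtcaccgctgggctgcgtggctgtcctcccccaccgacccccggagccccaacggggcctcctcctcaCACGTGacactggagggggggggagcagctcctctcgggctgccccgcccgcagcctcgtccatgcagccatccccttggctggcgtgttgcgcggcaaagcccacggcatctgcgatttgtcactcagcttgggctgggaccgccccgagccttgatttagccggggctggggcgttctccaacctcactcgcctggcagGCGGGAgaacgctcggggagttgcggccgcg

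Position on the chromosomes was likewise not used in the 6 differences. The rule also left out genes by name, Rhox and Xlr symbols among them, and the members are counted by chromosome after that step. On the X chromosome lay 8 of the 37 (21.6%), against 3.68% of all genes with a position: 1700013H16Rik, AU022751, Efhc2, Fmr1nb, Nxf3, Pnma5, Scml2 and Usp26. The 546 other X-linked genes were also past 0.8 somewhat more often than genes elsewhere. In 1KO cells 4.95%, 5.31% and 6.59% of them were at days 0, 2 and 4, against 3.6%, 2.4% and 2.59% of genes on other chromosomes, members left out of both. For 1KO+1CI the shares were 5.49%, 6.23% and 9.52% against 3.81%, 3.66% and 4.33%. The median difference of all X-linked genes was between -0.01 and 0.06.

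Of the 5 Y-linked genes in the table, 3 were members. Ddx3y, an RNA helicase, was at 4.54, 7.28 and 3.84 FPKM in WT, 13.4, 25.3 and 14.1 in 1KO and 15.8, 23.0 and 14.8 in 1KO+1CI cells. Uba1y, a ubiquitin-activating enzyme, was at 1.47, 2.15 and 0.792 FPKM in WT, 8.41, 13.1 and 10.9 in 1KO and 8.11, 16.3 and 10.0 in 1KO+1CI cells. Zfy1, a zinc finger transcription factor of spermatogenesis, had 17, 19 and 6 reads in WT, 165, 164 and 129 in 1KO and 251, 207 and 73 in 1KO+1CI libraries. The other Y-linked genes were also higher in every mutant library than in the WT library of its day, by smaller differences: 0.06 to 0.64 for Eif2s3y, a translation factor subunit, and 0.37 to 0.64 for Uty, a histone demethylase relative. At day 4, Eif2s3y had 29.8 (WT), 35.7 (1KO) and 31.2 FPKM (1KO+1CI). The X-linked partner genes were level, with Ddx3x between 195.0 and 237.0 FPKM and Uba1 between 127.0 and 165.0 FPKM over all libraries. The Y-linked genes thus differed from WT by unequal amounts. Over both mutant lines and all days, the differences were 1.88 to 2.74 for Uba1y, 1.38 to 1.7 for Ddx3y and 1.06 to 1.88 for Zfy1. Those of Eif2s3y and Uty, given above, were smaller, and Eif2s3y was closest to WT at day 4 in 1KO+1CI. Sequence shared with other genes covered 51.4% of a Uba1y transcript, and the part of their reads in the Uba1y values was not tested. The number of Y chromosomes per cell was not measured, and the part of a different share of cells holding a Y was not tested. For a single gene in bulk RNA, fewer cells of a type and less RNA per cell are one measurement.

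Chromosomes 3, 8, 13, 17, 18 and 19 held no member. Of these, chromosome 8, with 809 genes (5.38% of those with a position), stood apart in its levels. Its genes were lower in every mutant library than in the WT library of its day, with medians between -0.51 and -0.43, while the medians of the other 18 autosomes lay between -0.07 and 0.12. Between 84.2% and 85.5% of the chromosome 8 genes were lower, against 44.6% to 51.1% of genes elsewhere. For its 500 genes with a mean of at least 5 FPKM the median ratio of mutant to WT was 0.66 to 0.70. DNA copy number was not measured in these libraries, and its part in these levels was not tested.

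**Figure D3:**
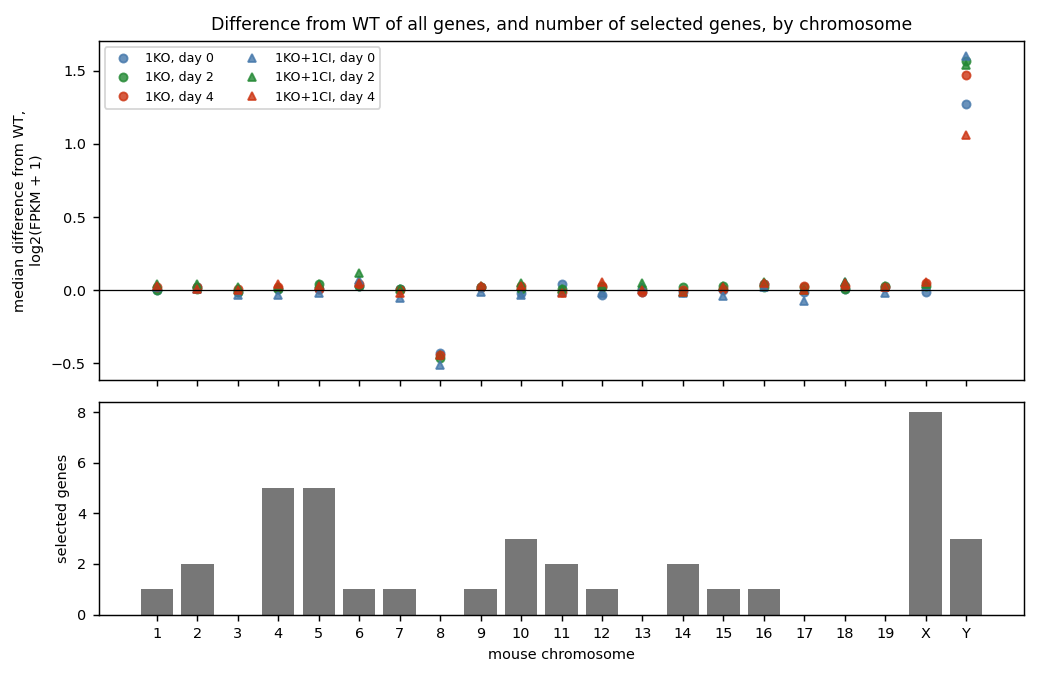
Top, median difference from WT in log2(FPKM + 1) of all genes on each mouse chromosome, 1 point per mutant line and day. Bottom, number of the 37 genes on each. Chromosome 8 lies between -0.51 and -0.43 in all 6 differences and holds none of the genes, chromosome Y (5 genes in all) lies above 1 and holds 3, and chromosome X lies near 0 and holds 8.

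Members seldom lay beside each other. Within 500 kb of another member were 7 of the 37: the 3 Y-linked genes, Zfp600 with Zfp992, and Nefm with A230070E04Rik. The nearest other tested genes on each side, within 500 kb and not members, numbered 63. Of these 63 neighbours, 3 (4.76%) were past 0.8 in at least 4 of the 6 differences, against 1.25% of all genes, and 19 (30.2%) in at least 1, against 11.9%. The medians of the neighbours were between 0.09 and 0.19. The 3 were Dusp2, a phosphatase 86.8 kb from Gpat2, Zfp981, a zinc finger gene 31.7 kb from Zfp992, and Man2b2, a mannosidase 37.9 kb from Ppp2r2c. Dusp2 was past 0.8 at days 0 and 2 (0.90 to 1.09) and not at day 4 (0.21 and 0.27), while Gpat2 was past it on every day. Nefl, with an exon overlapping Nefm, and Zfp987, which shares near-identical sequence with Zfp991 and Zfp992, were among the 19. Their reads may not be separable from those of the members. Col3a1, a collagen gene of the feeder fibroblast list beside Col5a2, was also among the 19.

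The zinc finger group held Zfp600, Zfp991, Zfp992 and Zfp951, genes of a class of which many members bind and silence retrotransposons. Zfp600 was at 4.94, 11.5 and 2.28 FPKM in WT, 23.1, 35.0 and 6.79 in 1KO and 27.9, 37.9 and 8.73 in 1KO+1CI cells. Zfp991 was at 12.8, 22.6 and 13.3 FPKM in WT, 41.4, 45.4 and 28.1 in 1KO and 50.3, 47.7 and 26.9 in 1KO+1CI cells, and Zfp992 followed it closely with 8.6, 14.6 and 8.65 in WT, 25.2, 28.9 and 17.8 in 1KO, and 29.6, 31.0 and 17.1 in 1KO+1CI cells. All 4 were lower at day 4 than at day 0 in both mutant lines. The values of 3 of them are uncertain as to which gene they belong to, because distal chromosome 4 carries near-identical copies. In stretches of at least 150 bases with at least 97% identity, 99.9% of a Zfp991 transcript, 99.6% of a Zfp600 transcript and 54.8% of that of Zfp992 was shared with other genes, and how reads with several alignments were counted is not given in the sources used here.

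Copies of these genes that were no members were also above WT at day 0. Rex2, which shares sequence with Zfp600, was 1.95 and 2.18 above WT in 1KO and 1KO+1CI cells at day 0, 1.03 and 1.18 at day 2 and 0.65 and 0.87 at day 4. Zfp979 was at 1.09 and 1.36 at day 0 and at 0.06 and 0.21 at day 4, and Zfp987, which shares with Zfp991, at 0.90 and 1.14 at day 0 and at -0.45 and -0.08 at day 4. Zfp951 on chromosome 5 had no such copy. Its levels were 0.305, 0.641 and 0.399 FPKM in WT, 3.63, 5.69 and 3.37 in 1KO and 4.83, 6.94 and 3.15 in 1KO+1CI cells, highest at day 2 in each line, as Zfp600 was.

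Innate immunity was represented by 3 genes. Ifi35, an interferon-induced protein, had 114, 38 and 40 reads in WT, 319, 99 and 162 in 1KO and 271, 108 and 114 in 1KO+1CI libraries. Zbp1, a sensor of Z-form nucleic acids that can trigger cell death, was at 2.08, 0.0735 and 0.0665 FPKM in WT, 5.34, 1.08 and 1.54 in 1KO and 7.25, 1.54 and 2.09 in 1KO+1CI cells. Parp12, an interferon-induced ADP-ribosyltransferase, was at 6.78, 1.9 and 3.73 FPKM in WT, 12.9, 10.9 and 12.1 in 1KO and 17.0, 14.7 and 9.58 in 1KO+1CI cells. All 3 were highest at day 0 in each line. In the interferon response list, with 41 genes in the table, between 8 and 11 were higher by 0.8 in a given difference. Of all genes, 2.75% to 4.75% were. At day 0, 5 of the 41 in 1KO and 6 in 1KO+1CI were lower by 0.8, against 3.61% and 4.28% of all genes. None of the 41 was lower by 0.8 at days 2 and 4. The list's medians were 0.19 and 0.14 at day 0, 0.21 and 0.15 at day 2 and 0.51 and 0.34 at day 4 for 1KO and 1KO+1CI. Irf1, Cxcl10 and Psmb8 were the other listed genes past 0.8 in at least 4 of the 6, those of days 2 and 4. At day 0 all 3 were below WT, unlike Ifi35 and Zbp1: Irf1 by -0.85 and -0.49, Cxcl10 by -1.33 and -1.15 and Psmb8 by -1.03 and -0.95 in 1KO and 1KO+1CI.

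Plagl1, an imprinted zinc finger gene read from the paternal copy, was at 2.56, 1.47 and 1.98 FPKM in WT, 5.91, 4.69 and 11.7 in 1KO and 6.24, 5.63 and 19 in 1KO+1CI cells. It was the only member among the 67 imprinted genes in the table, beside H19 among those left out by name. Past 0.8 in at least 4 of the 6 were 9 imprinted genes that were not members, H19 included, against 1.25% of all genes. In a given difference, 9 to 17 of the 67 were higher by 0.8 and 4 to 6 were lower. Of all genes, 2.75% to 4.75% were higher and 1.45% to 4.28% lower. No gene of the lists for the two-cell stage (20 in the table), p53 targets (36), primitive endoderm (24), primitive streak (15), naive pluripotency (20) or known germline repressors (32) was among the 37. Dppa3 of the naive pluripotency list met the 6 differences and was left out by name. With 0.299% of all genes meeting them, lists of this size hold a member seldom in any case. The list of X-linked multicopy and cancer-testis genes gave Nxf3 and Usp26 of 18 in the table, and the trophoblast list Plac8 of 31. The lists were drawn up with earlier results of these data known.

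The remaining members were not assigned a common role. They were A230070E04Rik, Adgrg6, AU022751, Col5a2, Efhc2, Lpar1, Nefm, Plac8, Pnma5, Ppp2r2c, Rusc2, Serpina3m and Srgn. Adgrg6, an adhesion receptor known from myelination, and Lpar1, a receptor for lysophosphatidic acid, had means of 0.283 and 1.56 FPKM in WT and 2.1 and 5.12 FPKM in mutant libraries. By day, Adgrg6 stood at 0.357, 0.303 and 0.19 FPKM in WT, 2.32, 1.72 and 2.39 in 1KO and 2.29, 1.32 and 2.56 in 1KO+1CI cells. Pnma5, of a family derived from a retrotransposon capsid gene, was at 2.6, 3.77 and 2.01 FPKM in WT, 21.3, 22.4 and 7.43 in 1KO and 23.1, 28.2 and 10.2 in 1KO+1CI cells. Ppp2r2c, a regulatory subunit of the phosphatase PP2A known from brain, had a mean of 3.62 FPKM in WT and of 13 FPKM in mutant libraries. Rusc2 was at 2.99, 2.57 and 0.45 FPKM in WT, 7.61, 7.4 and 1.54 in 1KO and 9.62, 6.53 and 4.11 in 1KO+1CI cells. Its lowest mutant value, at day 4 in 1KO, was below its WT value of day 0.

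The rule asks for a difference from WT on each day and leaves free how a gene moves over the days. From day 0 to day 4, 8 members were higher by at least 0.8 and 9 lower in 1KO cells, where 6.81% and 7.49% of all genes were. In 1KO+1CI cells 8 were higher and 12 lower, against 7.54% and 7.72% of all genes. In WT cells 3 were higher and 7 lower, against 3.7% and 7.13%, with the WT values held low by the rule. Past 0.8 in both mutant lines were 8 members upward (4.36% of all genes) and 7 downward (5.2%). In both mutant lines the members past 0.8 were thus split between higher and lower, and the medians over all 37 were -0.06 in 1KO and -0.29 in 1KO+1CI against 0.01 and 0.03 for all genes. In the additive fit (limma, 6 mutant libraries, line as block, adjusted over all genes), 9 members were higher and 13 lower at day 4 with an adjusted p under 0.05, against 16.4% and 15.7% of all genes. The 9 were the 8 above 0.8 and Fmr1nb. Nefm had the largest difference, 3.66 ± 0.23 (SE, limma adjusted p = 0.00016), and Col5a2 and Efhc2 the lowest, -1.7 ± 0.17 (limma adjusted p = 0.00076) and -1.7 ± 0.19 (limma adjusted p = 0.001).

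Higher at day 4 in both mutant lines were A230070E04Rik, AU022751, Nefm, Nxf3, Plac8, Plagl1, Serpina3m and Srgn. Lists that mark other cell states moved over the same days. The 15 primitive streak genes summed to 66.5 and 288.0 FPKM at days 0 and 4 in 1KO, 64.7 and 291.0 in 1KO+1CI and 67.4 and 85.9 in WT cells. For the 24 primitive endoderm genes the sums were 785.0 and 858.0, 800.0 and 1100.0, and 872.0 and 578.0 in the same order. Apoe alone held 201.0 and 374.0, 195.0 and 377.0, and 361.0 and 228.0 FPKM of these sums. The medians of that list against WT were 0.13 (1KO) and 0.23 (1KO+1CI) at day 0 and 0.41 and 0.94 at day 4. The part of these states in the courses of the members was not tested. Nefm, a subunit of neurofilaments, had the largest difference and the highest level of all 37, at 9.47, 17.2 and 102.0 FPKM in 1KO and 7.49, 10.8 and 137.0 in 1KO+1CI cells, beside 2.83, 3.11 and 7.37 in WT. A230070E04Rik, a long non-coding RNA gene whose annotated span overlaps that of Nefm, was at 3.98, 8.48 and 51.2 FPKM in 1KO, 3.65, 5.59 and 66.2 in 1KO+1CI and 0.965, 1.22 and 3.36 in WT cells. Without a stated strand setting the reads of the pair cannot be told apart where they overlap. Nefl, another neurofilament gene beside them with an exon overlapping Nefm, was past 0.8 in 3 of the 6 differences with 39.9 (WT), 159.0 (1KO) and 187.0 FPKM (1KO+1CI) at day 4.

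The others of this course began at lower levels. Plac8, a small cysteine-rich protein first known from placenta, was at 5.28, 11.2 and 23.4 FPKM in 1KO, 3.46, 7.02 and 31.9 in 1KO+1CI and 0.782, 1.06 and 5.06 in WT cells, and it was past 0.8 upward in WT too, as were Nefm and A230070E04Rik. The trophoblast list without Plac8 summed to 458.0 to 722.0 FPKM in WT and 630.0 to 1080.0 in mutant libraries. Its highest sum, at day 4 in 1KO+1CI, held 316.0 FPKM of Peg10, also an imprinted gene, 177.0 of Krt8 and 145.0 of Krt18. Gata3, Hand1 and Esx1 were at 0.857, 1.15 and 0.9 FPKM there, against 0.155, 0.601 and 0.744 in WT. The part of the list in the Plac8 values was not tested. AU022751 was at 4.79, 6.39 and 18.0 FPKM in 1KO, 4.24, 5.9 and 18.7 in 1KO+1CI and 1.27, 1.2 and 2.04 in WT cells. Serpina3m, a serine protease inhibitor, had 233, 196 and 400 reads in 1KO, 90, 158 and 366 in 1KO+1CI and 17, 4 and 9 in WT libraries. Srgn, the core of the serglycin proteoglycan of secretory granules, was at 0.912, 1.35 and 3.04 FPKM in 1KO, 1.91, 3.41 and 6.79 in 1KO+1CI and 0.0595, 0.102 and 0.188 in WT cells. Serpina3m, Srgn, AU022751, Plagl1 and Nxf3 were within 0.8 of their day 0 value in WT.

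**Figure D4:**
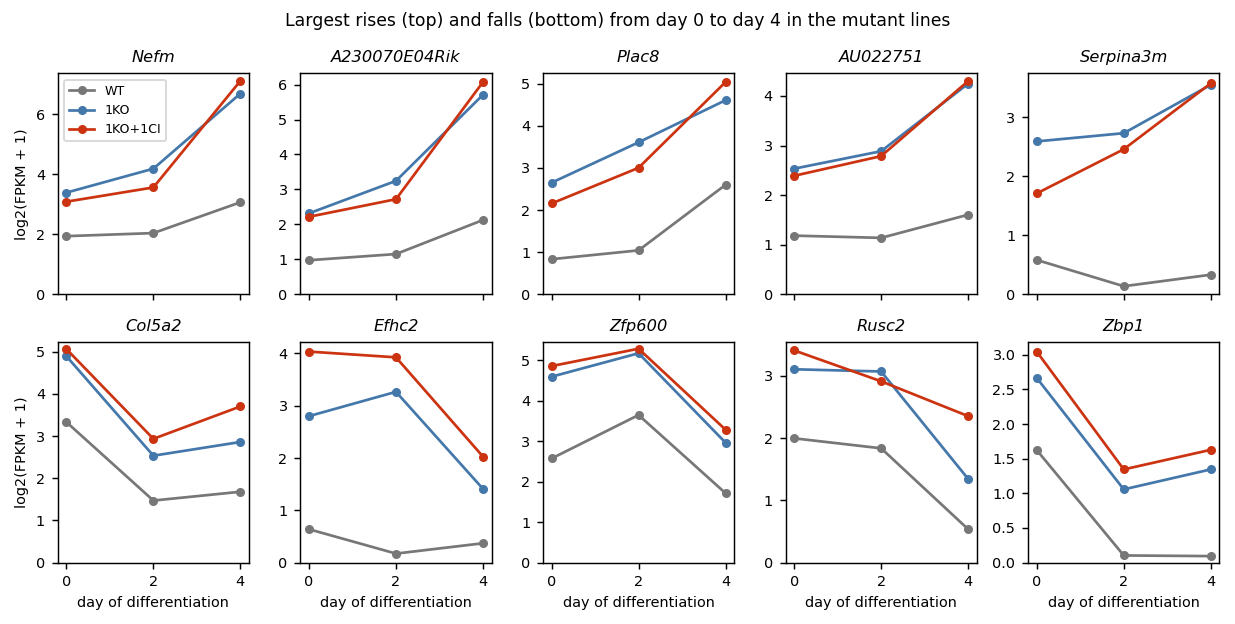
Level, log2(FPKM + 1), against day of differentiation in WT (grey), 1KO (blue) and 1KO+1CI (red), 1 library per point, for the 5 members with the largest rise (top) and the 5 with the largest fall (bottom) from day 0 to day 4 averaged over the mutant lines. Each panel has its own scale from 0. Nefm reaches 102.0 and 137.0 FPKM at day 4 in the mutant lines, and Col5a2, Zfp600, Rusc2 and Zbp1 are also lower at day 4 than at day 0 in WT.

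Lower at day 4 in both mutant lines were Col5a2, Efhc2, Pnma5, Rec114, Rusc2, Zbp1 and Zfp600, and all of them but Efhc2 and Pnma5 were also lower by 0.8 in WT. Efhc2, an X-linked EF-hand protein, was at 5.97, 8.62 and 1.66 FPKM in 1KO and 15.4, 14.2 and 3.08 in 1KO+1CI cells, beside 0.555, 0.126 and 0.291 in WT. Col5a2, a chain of type V collagen, was at 9.06, 1.77 and 2.2 FPKM in WT, 28.7, 4.79 and 6.25 in 1KO and 32.4, 6.64 and 12 in 1KO+1CI cells. Col5a2 is also a fibroblast gene, and the ESCs were grown on fibroblasts. The 26 other genes of the feeder fibroblast list summed to 753.0, 429.0 and 396.0 FPKM in WT, 1190.0, 379.0 and 427.0 in 1KO and 1420.0, 471.0 and 953.0 in 1KO+1CI libraries at days 0, 2 and 4. Most of the 953.0 at day 4 in 1KO+1CI came from Tagln (417.0), Vim (158.0) and Acta2 (147.0 FPKM), which were at 171.0, 77.9 and 22.3 in WT. Among the collagens, Col1a1 was at 9.86 and Col3a1 at 1.29 FPKM there, against 5.07 and 1.55 in WT. Of the 27 listed genes, 12 were higher by 0.8 in that library and 0 lower. The list's medians against WT were 0.81 and 1.18 at day 0, 0.24 and 0.63 at day 2 and 0.10 and 0.63 at day 4. The part of feeder cells in Col5a2 was not tested.

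The courses by role are given as a description, since roles were assigned with the values known and differences between them were not tested. Of the 13 germline members, 4 were higher and 7 lower at day 4 than at day 0 in both mutant lines, with 1 past 0.8 in each direction (Nxf3 and Rec114), and their median was -0.03 in 1KO, -0.18 in 1KO+1CI and -0.19 in WT. The 4 zinc finger members had medians of -0.51 and -0.82, with 0.03 in WT, and the 3 innate immune members -0.58 and -0.86, with -1.08 in WT. All 7 were lower in both mutant lines. Among the 14 others, Plagl1 included, 8 were higher and 5 lower in both lines, 7 and 4 of them past 0.8.

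To see how often a rise of day 0 was still there later, genes were chosen on day 0 alone and read on later days, which have WT libraries of their own. Of 357 genes at least 0.8 higher in both mutant lines at day 0, after the names left out by the rule, 25.5% were so at day 2, against 1.99% of all genes, and 12.6% at day 4, against 1.98%. Chosen at day 4, 15.2% of 296 genes were so at day 0. With the lines crossed, of 553 genes past 0.8 in 1KO at day 0, 23.9% were past it in 1KO+1CI at day 4 (4.56% of all genes), and of 586 in 1KO+1CI at day 0, 13.7% were in 1KO at day 4 (2.80%). Most genes past 0.8 at day 0 were therefore not past it at day 4. The 37 members are past it on every day by the rule, so they are counted in each of these shares. They are 37 of the 91 genes chosen at day 0 and still past it at day 2, and 37 of the 45 at day 4. The shares thus partly repeat the rule, and their excess over all genes is not read as a result. With 0.1 in place of 1 added before the logarithm, the shares became 30.3% at day 2 and 19.8% at day 4.

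The second comparison left free by the rule is that between the mutant lines, which differ in the transgene for the inactive protein. For most members the mutant lines differed by less than 0.8 on every day. The median of 1KO+1CI minus 1KO over the 37 was 0.17, 0.13 and 0.05 on days 0, 2 and 4, beside -0.01, 0.02 and 0.00 for all genes. At least 0.8 higher in 1KO+1CI were 2 members at day 0, 4 at day 2 and 3 at day 4, and 0.431%, 0.451% and 1.29% of all genes. At least 0.8 lower were 1, 0 and 0 members, and 0.630%, 0.378% and 0.716% of all genes. On all 3 days 11 members were higher in 1KO+1CI (16.4% of all genes) and 2 were lower (15.5%), namely Hormad2 and Rpl39l. The 1KO+1CI line carries a resistance gene and was taken through drug selection and cloning, so that the transgene and the history of the line cannot be told apart. With day as a block, no member differed between the mutant lines at an adjusted p under 0.05 (limma, 6 mutant libraries), and the smallest adjusted p of a member was 0.34. No gene of the 15074 was called either. Dnmt1 itself was thus not called, at 13.7, 17.4 and 12.3 FPKM in 1KO and 315.0, 129.0 and 158.0 in 1KO+1CI cells. A fit that missed this difference cannot decide whether a member differed, so nothing is read from the absence of calls. An unadjusted p under 0.05 was found for 8.5% of the genes. Among the members 9 had one, all higher in 1KO+1CI: Col5a2, Efhc2, Gtsf1, Pnma5, Scml2, Srgn, Usp26, Zbp1 and Zfp600. In the same fit over all 9 libraries 5 members had one. The largest were Efhc2 at 0.83 ± 0.15 and Srgn at 0.82 ± 0.13 (SE, 3 days, both with limma adjusted p = 0.34).

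The members with a difference of 0.8 or more on some day were 1700013H16Rik, Col5a2, Cox7b2, Efhc2, Nlrp4c, Rusc2, Scml2 and Srgn upward and Serpina3m downward. Srgn was the most regular, higher by 0.61, 0.91 and 0.95 at days 0, 2 and 4. Efhc2 was higher by 1.23, 0.66 and 0.62, and Scml2 by 1.12 and 0.68 at days 0 and 2 with 0.00 at day 4. Usp26 was higher by 0.77, 0.65 and 0.17. The lowest medians were those of Plac8 (-0.50, -0.61 and 0.43 on the 3 days), Nefm (-0.30, -0.63 and 0.42) and Serpina3m (-0.88, -0.27 and 0.03), each with a value above 0 at day 4.

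**Figure D5:**
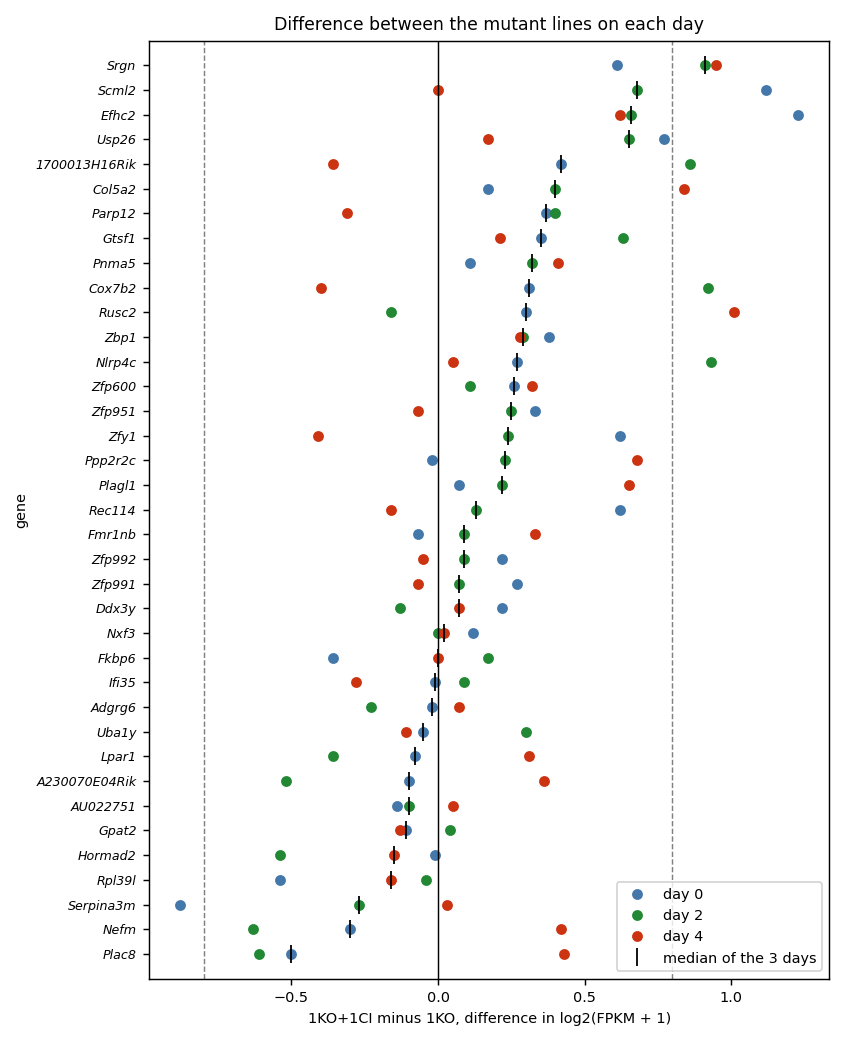
Difference in log2(FPKM + 1) between 1KO+1CI and 1KO for each of the 37 genes on days 0, 2 and 4, 1 pair of libraries per point, ordered by the median of the days (black tick). Dashed lines mark differences of 0.8. Most points lie between them, Srgn, Scml2, Efhc2 and Usp26 have the highest medians and Plac8 the lowest.

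For 9 members the FPKM values could be turned back into whole reads, which gives the counting error of the ratio of 1KO+1CI to 1KO after scaling by depth. The exact 95% interval (Clopper-Pearson on the share of reads) did not hold 1 in 15 of 27 ratios. It lay above 1 in 4 members at day 0, 5 at day 2 and none at day 4, and below 1 in 1, 2 and 3 members. Serpina3m had a ratio of 0.453 (0.351 to 0.58) at day 0, 0.798 (0.643 to 0.989) at day 2 and 1.03 (0.888 to 1.19) at day 4. Nlrp4c had 1.34 (1.08 to 1.68), 2.6 (2.06 to 3.31) and 1.05 (0.85 to 1.29). Rec114 had 1.59 (1.35 to 1.87) at day 0, and Gtsf1 1.8 (1.16 to 2.84) and Hormad2 0.598 (0.424 to 0.837) at day 2. All 3 ratios of Ifi35 had intervals that held 1, between 0.789 and 1.08. These intervals cover counting error only and leave out the spread between cultures, which was not measured. They were not computed for other genes, so the counts have no share of all genes beside them. Nothing particular to the members is read from them.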

How the data were processed

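RNA-seq reads had been cleaned with Trim Galore and aligned to mm10 by HISAT2, and the authors summarised them with HOMER, whose FPKM values per gene symbol were deposited. No source used here gives tool versions, the annotation release, the strand setting or the handling of multiply aligned reads. Of 15095 entries, 21 that name no gene (a 0 or a date in place of a symbol) were left out. The repeat table was not used here.

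Differences were taken in log2(FPKM + 1), which understates those of low genes. With 1 library per condition, single days were not tested. Chosen after seeing the data, an additive fit of line and day (limma 3.58.1 in R 4.3.3, log2(FPKM + 1), trended variance, Benjamini-Hochberg over all genes) was run on the 6 mutant libraries, with 2 residual degrees of freedom. The members and lists were chosen with earlier results of these data known. Every member is named, and values in all libraries are given at least for listed genes, the highest levels, the largest differences between mutant lines or days, members close to each other and those nearest the limit.

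The most frequent ratio of low values between libraries gave their relative depth, and genes with 1 annotated transcript the number of reads. These steps and the fit were tested on simulated data. Whole reads came out for 9 members at an annotated transcript length. Positions are from GENCODE M21 (GRCm38), promoters from RefSeq GRCm38.p6, and shared transcript sequence from BLAST 2.17.0. Python 3.11.15, pandas 2.3.3 and scipy 1.17.1 were used. Alternatives changed the value added, the limit, the scaling, a filter, the days, the promoter window and the neighbour distance.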

Additional observations from a re-analysis of the deposited data

Results flagged for a closer look

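In 3 members the ratio of 1KO+1CI to 1KO reads lay above 1 on an earlier day and below 1 at day 4, each time with a counting interval that left out 1. For 1700013H16Rik the ratios were 1.4 (1.15 to 1.71) at day 0, 2.02 (1.58 to 2.6) at day 2 and 0.735 (0.561 to 0.958) at day 4. Cox7b2 had 2.0 (1.56 to 2.59) at day 2 and 0.732 (0.542 to 0.983) at day 4. Zfy1 had 1.78 (1.46 to 2.19), 1.25 (1.01 to 1.54) and 0.635 (0.469 to 0.852). The difference between days was not tested, since each condition has 1 library. Such ratios were not computed for genes outside the members, so how common this pattern is among all genes is not known.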

How the results depend on the processing

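Of 55 recomputed values, 45 stayed within 1.5 times (counts), the exact interval (shares) or the quartiles (CpG) of the value reported, and 10 did not. The number of genes meeting the rule, 37 as reported, was 102 with 0.1 added before the logarithm, 142 with 0.01, 83 with a limit of 0.5, 76 without day 0 and 91 without day 4. These settings are less strict by construction, and all 37 members were among the genes chosen with 0.1, with 0.01 and with the limit of 0.5. With a limit of 1 the number was 25, rescaled to a common sum 37 (36 of them members) and with median-ratio scaling 40. The share of day 0 genes past the limit became 34.5% at day 2 with 0.01 added, and 19.8% and 24.7% at day 4 with 0.1 and 0.01 added, and the cause was not tested. Members with another member near were 4 within 100 kb in place of 7 within 500 kb. In the 100 bases around the start site the median CpG count of members was 0.556 of that of all genes, against 0.625 in 300 bases. A methylation-sensitive motif was held by 17.9% of members there in place of 32.1%, and by 25.8% of all genes in place of 48.0%. In the additive fit, chosen after seeing the data, the members with an unadjusted p under 0.05 between the mutant lines were 5 over all 9 libraries in place of 9 over the 6 mutant libraries, and none was called in either (limma). The members called between days 0 and 4 were 15 in place of 22. Each condition has 1 library, so no replicate could be left out.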
